A study of Homo sapiens with 14 samples.

Results

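Collagen genes encode the chains of the collagens, the main structural proteins of the extracellular matrix. They were taken here as every gene whose symbol has the form COL, a number, A and a number. The count table of 56479 genes names 44 of them, and 25 reached at least 0.5 CPM, the count scaled to library size, in 2 of the 14 libraries. At the edge of that rule, the second highest library stood at 0.548 CPM for COL21A1, which entered, and at 0.473 CPM for COL4A4, which did not. All 25 passed the filter on low counts and were tested. The other 19 never exceeded 0.664 CPM, a value of COL5A1 in HepG2 under a weight, and 2 of them, COL22A1 and COL23A1, had no count in any library.

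The libraries hold RNA of HepG2, labelled a hepatoblastoma line, and Hep3B, labelled a hepatocellular carcinoma line, both with a WT genotype. On culture dishes, HepG2 spent 5 days in isotonic medium or with 4% polyethylene glycol (PEG), which raises the osmotic pressure outside the cells. On transwells, which are porous culture inserts, HepG2 was left uncompressed or carried a weight, and Hep3B was left uncompressed, carried a weight or received 3% PEG. Each of these 7 groups has 2 libraries. No source used here gives the size of the weight or the time on transwells. Replicates are labelled as biological, but whether they came from separate cultures is not said, so p-values measure the spread between these samples, which may be partly technical.

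Collagen chains wind around each other to form the protein, so a functional collagen needs the right partner chains in the same cell. The fibrillar collagens (types I, II, III, V, XI, XXIV and XXVII) build fibrils, and fibril-associated collagens such as types IX, XII, XIV and XVI sit on their surface. Type IV forms the sheet of basement membranes, type VI forms beaded filaments, type VII anchors epithelium to stroma, and type XVIII is a basement membrane proteoglycan whose end is cut off as endostatin. In liver, most fibrillar collagen is made by activated stellate cells and fibroblasts, while hepatocytes and tumours derived from them make less. Of the named genes, 7 of 11 fibrillar, 7 of 10 fibril-associated, 4 of 6 basement membrane, 3 of 5 beaded filament, 2 of 3 anchoring fibril and related, 1 of 3 network and 1 of 2 multiplexin genes were reported, and none of the 4 transmembrane ones.

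The type IV genes lie in pairs that share 1 promoter region and are read away from each other. The promoter windows shown first are those of the pairs whose genes were both reported. Between the lines, COL4A1, COL4A5 and COL4A6 differed by the test given below, and COL4A2 did not. The remaining pair, COL4A3 and COL4A4, with gene model starts 112 bases apart, was below the rule and is not shown. Each window runs from 250 bases before to 50 bases after a RefSeq start on GRCh38.p14, read 5′ to 3′ on the gene's own strand. Capitals mark matches on either strand to 6 motifs: GGGCGG (the GC box), CCAAT (the CCAAT box), TATAAA (the TATA box), TGANTCA (the AP-1 site), CATTCC (the TEAD site) and TGGAAA (the core of the NFAT site). The starts of COL4A1 (minus strand, chr13:110307108-110307407) and COL4A2 (plus strand, chr13:110307034-110307333) lie 127 bases apart, so that their windows overlap by 226 bases. Those of COL4A5 (plus strand, chrX:108439588-108439887) and COL4A6 (minus strand, chrX:108439409-108439708) lie 380 bases apart and overlap by 121. COL7A1 (minus strand, chr3:48595280-48595579) and COL16A1 (minus strand, chr1:31703968-31704267) were added after their values had been seen. They moved in more than 1 comparison, as did other genes whose windows are not shown, among them COL18A1 and COL27A1.
COL4A1: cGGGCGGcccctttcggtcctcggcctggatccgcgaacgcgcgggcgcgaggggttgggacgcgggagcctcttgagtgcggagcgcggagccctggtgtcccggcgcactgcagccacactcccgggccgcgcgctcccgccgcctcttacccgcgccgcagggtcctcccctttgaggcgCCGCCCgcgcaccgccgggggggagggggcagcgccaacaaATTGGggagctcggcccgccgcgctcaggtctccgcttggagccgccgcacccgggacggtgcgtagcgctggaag
COL4A2: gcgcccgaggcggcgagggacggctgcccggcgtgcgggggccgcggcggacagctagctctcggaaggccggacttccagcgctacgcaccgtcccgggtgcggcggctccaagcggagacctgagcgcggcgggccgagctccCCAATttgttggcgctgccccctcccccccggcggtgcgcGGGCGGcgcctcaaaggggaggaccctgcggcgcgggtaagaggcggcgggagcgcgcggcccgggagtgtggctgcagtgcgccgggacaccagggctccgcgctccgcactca
COL4A5: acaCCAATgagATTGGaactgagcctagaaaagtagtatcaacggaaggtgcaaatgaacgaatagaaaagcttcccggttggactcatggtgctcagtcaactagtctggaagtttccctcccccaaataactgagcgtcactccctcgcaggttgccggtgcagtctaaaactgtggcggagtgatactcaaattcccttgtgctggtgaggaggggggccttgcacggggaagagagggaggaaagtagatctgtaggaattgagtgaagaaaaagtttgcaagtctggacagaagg
COL4A6: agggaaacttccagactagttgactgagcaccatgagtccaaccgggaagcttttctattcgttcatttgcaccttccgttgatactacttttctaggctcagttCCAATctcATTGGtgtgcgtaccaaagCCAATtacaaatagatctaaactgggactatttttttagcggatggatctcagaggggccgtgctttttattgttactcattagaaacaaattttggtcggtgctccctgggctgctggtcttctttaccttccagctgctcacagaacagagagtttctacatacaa
COL7A1: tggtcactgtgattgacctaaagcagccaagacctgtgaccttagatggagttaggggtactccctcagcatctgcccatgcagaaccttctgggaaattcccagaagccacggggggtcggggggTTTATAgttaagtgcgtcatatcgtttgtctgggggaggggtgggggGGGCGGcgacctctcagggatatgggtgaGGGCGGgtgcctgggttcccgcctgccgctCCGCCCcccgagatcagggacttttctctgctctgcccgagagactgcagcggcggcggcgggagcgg
COL16A1: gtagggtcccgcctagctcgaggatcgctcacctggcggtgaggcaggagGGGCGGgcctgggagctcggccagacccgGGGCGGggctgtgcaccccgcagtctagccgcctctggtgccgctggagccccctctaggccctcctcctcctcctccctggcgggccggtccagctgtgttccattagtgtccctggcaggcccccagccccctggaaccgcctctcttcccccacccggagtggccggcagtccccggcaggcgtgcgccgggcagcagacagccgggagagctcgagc

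The shared stretch of COL4A5 and COL4A6 holds a CCAAT and an ATTGG close together, read from each side, and no GC box, whereas the COL4A1 and COL4A2 windows hold both a GC box and a CCAAT box. RefSeq windows were found for 18 of the 25 genes, 26 windows in all. A GC box was present in 16 of the 26, against 45% of all 35116 windows of 300 bases. CCAAT was present in 6 (34.6% of all windows), TATAAA in 3 (11.5%), TGGAAA in 8 (20.7%), CATTCC in 2 (14%) and TGANTCA in none (7.71%). No motif contains another. A match describes the letters of a window and is not a measured binding site.

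Library totals ran from 21161950 to 35394448 counts, and the 25 genes shared features that touch their measurement. Their longest transcripts had a median GC content of 61.3% and a median length of 6466 bases, against 48.0% and 2685 bases over all genes tested. The 2 replicates of each dish group differed far more than those of each transwell group: the biological coefficient of variation was 0.323 for isotonic and 0.290 for 4% PEG, against 0.0434 to 0.0704 on transwells. Replicate 2 was the higher one for 18 of 25 collagen genes in isotonic medium and for 15 of 25 in 4% PEG. The replicate difference followed GC content across the genes tested, with a Spearman rho of 0.650 and 0.660, so calls with GC-corrected offsets are given beside the dish results. The tests pool the spread of all 14 libraries. The pooled spread can understate that of the dish groups, so p-values of comparisons with a dish group can be too small. A fit of the 10 transwell libraries alone, added after the data had been seen, has a smaller spread and calls more of all genes, so its calls are given with its own share of all genes.

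**Figure D1:**
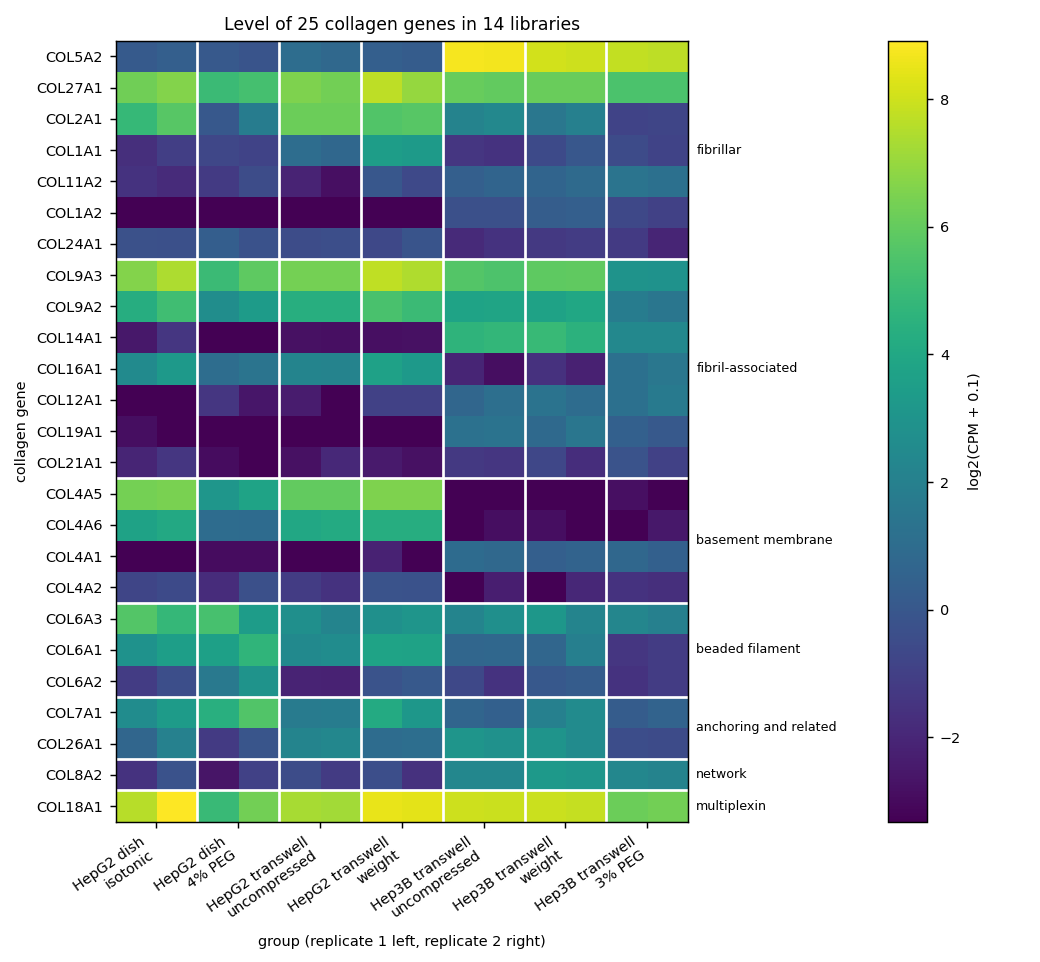
Level of each collagen gene (rows, grouped by class) in each library (columns, replicate 1 left and replicate 2 right of each group), as log2 of CPM + 0.1 on TMM-scaled library sizes. Within a row colours compare libraries; COL5A2 is bright in the 6 Hep3B libraries alone, COL4A5 and COL4A6 in the 8 HepG2 libraries alone.

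Both lines gave a large share of their collagen transcripts to a few genes, and the chains of types I and III were not among them. Per kilobase of transcript, COL9A3, a chain of the fibril-associated type IX collagen, held 31.0% of the collagen signal of uncompressed HepG2 on transwells, followed by COL18A1 with 21.9%, the cartilage collagen COL2A1 with 13.4%, the fibrillar COL27A1 with 10.3% and COL4A5 with 9.19%. In uncompressed Hep3B, COL5A2, a chain of the fibrillar type V collagen, held 42.2%, followed by COL18A1 with 26.9%, COL9A3 with 13.5% and COL27A1 with 6.00%. COL3A1, the fibrillar chain common in scar tissue, was among the 19 genes below the rule, with at most 0.233 CPM. COL1A1, the main chain of type I collagen, reached no more than 11.2 CPM.

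Several chains were expressed without the partner that normally completes the molecule. COL5A2 stood at 59.0 ± 1.03 CPM per kilobase (SD, n = 2) in uncompressed Hep3B, while COL5A1, its usual partner, gave 1 count there and at most 2 counts in any Hep3B group. COL9A3 and COL9A2 stood at 33.2 ± 0.14 and 7.12 ± 0.066 CPM per kilobase in uncompressed HepG2, while COL9A1, the remaining chain of type IX, had no count. COL1A2, which completes type I collagen, had no count in any of the 8 HepG2 libraries, including those under a weight, where COL1A1 stood at 1.59 ± 0.12 CPM per kilobase.

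**Figure D2:**
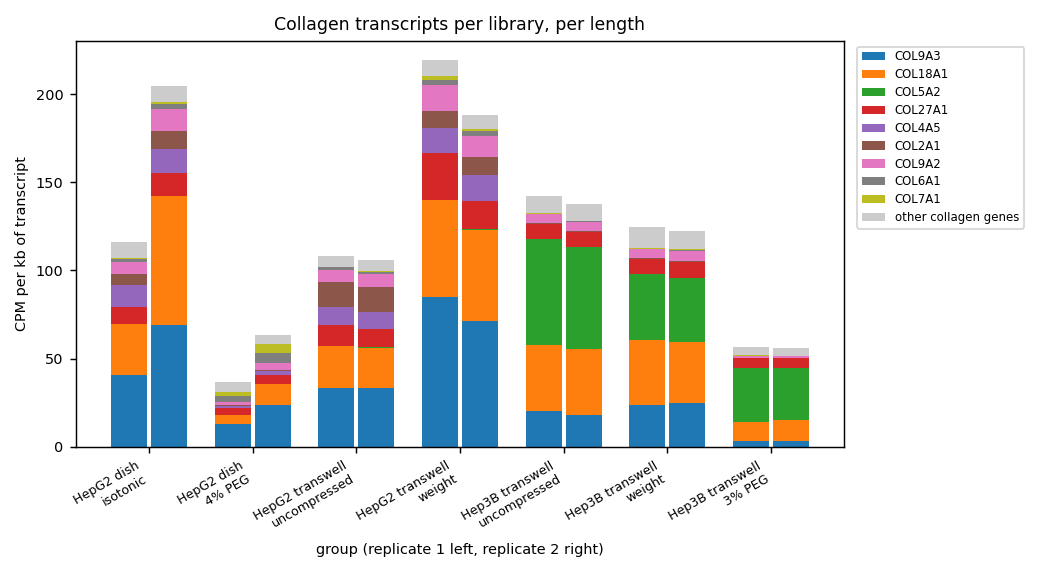
Collagen signal of each library in CPM per kilobase of transcript, stacked by gene (bars, replicate 1 left and replicate 2 right of each group; grey, all other collagen genes). The 4% PEG and 3% PEG libraries are the lowest of their line, between 36.8 and 63.5; HepG2 under a weight, at 189 and 219, stands above both uncompressed libraries.

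Summed over all 44 genes, collagen transcripts reached 803 ± 303 CPM in isotonic HepG2 and 253 ± 77.1 CPM in 4% PEG (mean ± SD, n = 2 in each group). On transwells HepG2 gave 527 ± 13.9 CPM uncompressed and 981 ± 108 CPM under a weight. Hep3B gave 855 ± 12.6 CPM uncompressed, 714 ± 18.0 CPM under a weight and 373 ± 1.56 CPM in 3% PEG. In each comparison the libraries of the groups did not overlap. These sums were not tested. In bulk RNA, fewer cells of a kind and less RNA per cell cannot be told apart.

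The lines were compared first, uncompressed and on the same surface, since each uses its own set of collagens. Of the 25 genes, 8 were higher and 9 lower in Hep3B than in HepG2 by edgeR's quasi-likelihood test (Benjamini-Hochberg adjusted p under 0.05 over all 19232 genes tested, the threshold used throughout). Of all genes tested, 54.7% passed in this comparison, 27.6% upward and 27.1% downward, and the median difference was -0.01 for the collagen genes and 0.02 for all genes on the log2 scale. COL5A2 (ENSG00000204262, chr2:189031896-189225312) stood at 423 and 413 CPM in the uncompressed Hep3B libraries and at 2.01 and 1.65 CPM in the HepG2 ones. No library of one line came near the other (log2 difference 7.83, SE 0.16, adjusted p = 3.23e-11).

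COL14A1, a fibril-associated chain that binds decorin-bearing fibrils, followed the same pattern at a lower level. It stood at 24.8 and 27.8 CPM in uncompressed Hep3B and had 2 counts in uncompressed HepG2, against 1502 counts, a ratio of 612 (exact 95% interval 169 to 5062, counting error only). COL12A1, its relative, had 105 counts against 2, a ratio of 42.8 (11.6 to 358). COL19A1, COL4A1 and COL1A2 had no count at all in uncompressed HepG2: taking 3 counts over the group as the floor, COL19A1 was at least 36.7-fold higher in Hep3B, COL4A1 at least 27.2-fold and COL1A2 at least 10.9-fold. COL11A2, a cartilage chain, and COL8A2, a chain of the sheet under the corneal endothelium, were higher by 3.88 (SE 0.53) and 3.37 (SE 0.55) on the log2 scale.

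Of the reported type IV pairs, 1 split by line as a pair and the other did not. COL4A5 (ENSG00000188153, chrX:108439844-108697545) stood at 63.8 and 63.7 CPM in uncompressed HepG2 and had no count in uncompressed Hep3B, so it was at least 1214-fold lower there. COL4A6, its head-to-head neighbour, stood at 15.9 and 17.7 CPM in HepG2 and had 1 count in Hep3B, a ratio of 0.00104 (exact 95% interval 2.63e-05 to 0.00581). These 2 genes, which share a promoter region, were both expressed in HepG2 and both at or near 0 in Hep3B. COL4A1 and COL4A2, which also share a promoter region, did not go together. COL4A1 stood at 1.85 and 1.65 CPM in uncompressed Hep3B and at 0 in HepG2, whereas COL4A2 stood at 0.105 CPM or 0 in Hep3B and at 0.357 and 0.248 CPM in HepG2, a difference that did not pass (adjusted p = 0.0788).

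**Figure D3:**
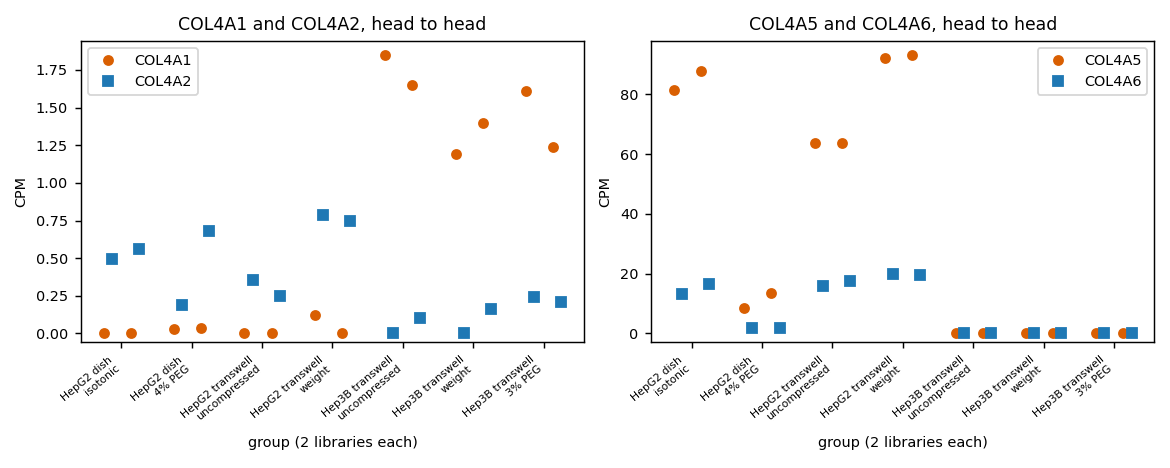
CPM of the 2 reported head-to-head type IV gene pairs in each library (points, 2 libraries a group, on linear axes of different range). COL4A1 lies above COL4A2 in the Hep3B libraries and below it in the HepG2 libraries, whereas COL4A5 and COL4A6 are both high in HepG2 and near 0 in Hep3B.

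The other genes lower in Hep3B included COL16A1 (log2 difference -5.60, SE 0.50), COL2A1 (-3.92, SE 0.44), COL1A1 (-2.74, SE 0.35) and COL6A1 (-1.89, SE 0.43). COL24A1, COL7A1 and COL9A3 were lower by smaller margins, at -1.59, -1.31 and -0.81. COL7A1 and COL9A3 lost their call when any of the 4 libraries was left out, and COL24A1 without HepG2 replicate 2 or Hep3B replicate 1 (adjusted p up to 0.152, 0.124 and 0.0854). With the transwell libraries alone, COL7A1 was no longer called (adjusted p = 0.0583), and 5 further genes were called in the direction of their main value, COL18A1, COL26A1 and COL6A2 higher and COL9A2 and COL4A2 lower, in a fit that called 74.0% of all genes.

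Under 4% PEG, most abundant collagens of HepG2 fell, while the anchoring fibril gene COL7A1 and the type VI gene COL6A2 rose. Of the 25 genes, 11 fell and 3 rose, where 23.0% of all genes tested fell and 23.9% rose (46.9% in all). With the 2 dish groups fitted alone, 8 fell and 2 rose of 18 collagen genes tested, in a fit that called 3764 of 17092 genes. The median change was -1.03 for the collagen genes, or -1.17 with genes at the floor in both groups left out and genes with an empty group at their bound, and 0.01 for all genes. COL2A1 (ENSG00000139219, chr12:47972965-48004554) stood at 29.3 and 52.5 CPM in isotonic medium and at 0.921 and 3.44 CPM in 4% PEG, with no overlap (log2 fold change -4.24, SE 0.46, adjusted p = 1.69e-05). COL4A5 went from 81.3 and 87.8 CPM to 8.64 and 13.6 CPM (-2.93, SE 0.22, adjusted p = 4.45e-06). Its neighbour COL4A6 went from 13.3 and 16.5 CPM to 1.91 and 1.84 CPM (-2.99, SE 0.29, adjusted p = 6.3e-06). Both genes of the pair thus fell. The ratio of COL4A5 to COL4A6 in CPM per kilobase lay between 5.55 and 6.38 in isotonic medium and between 4.72 and 7.69 in 4% PEG.

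COL18A1 (ENSG00000182871, chr21:45405137-45513720) was uneven between the replicates of both dish groups. It stood at 192 and 483 CPM in isotonic medium and at 30.8 and 78.2 CPM in 4% PEG. Even so, the lowest isotonic library lay above the highest 4% PEG library (log2 fold change -2.63, SE 0.42, adjusted p = 0.000355). Of its exonic bases, 16.4% are shared with SLC19A1, a folate carrier on the opposite strand, and no source used here says whether the counting used strand. SLC19A1 fell too, from 28.2 ± 16.6 to 12.7 ± 6.49 CPM (-1.15, SE 0.38, adjusted p = 0.0267), and the part of shared reads was not tested.

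Both expressed type IX chains fell, COL9A3 from 101 and 172 CPM to 32.4 and 59.4 CPM (-1.57, SE 0.27) and COL9A2 from 19.9 and 35.9 CPM to 6.19 and 10.51 CPM (-1.74, SE 0.30). COL27A1, COL16A1 and COL26A1 fell by 1.32, 1.72 and 2.22 on the log2 scale. Of the genes near the floor, COL14A1 had 8 counts in isotonic medium and 0 in 4% PEG (at least 3.27-fold lower). COL21A1, a fibril-associated chain, had 10 counts and 1 (ratio 0.0814, exact 95% interval 0.00188 to 0.572).

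COL7A1 (ENSG00000114270, chr3:48564073-48595267), the anchoring fibril chain, rose from 6.12 and 10.4 CPM to 20.96 and 47.4 CPM (log2 fold change 2.06, SE 0.42, adjusted p = 0.00186). COL6A2 rose from 0.354 and 0.657 CPM to 2.95 and 7.69 CPM (3.42, SE 0.50, adjusted p = 0.000166). Its partner COL6A1 stood at 7.53 and 11.5 CPM before and at 12.2 and 25.5 CPM after, with no overlap but short of the threshold (0.99, SE 0.38, adjusted p = 0.0526). It passed with GC-corrected offsets (adjusted p = 0.00314), which called 57.8% of all genes. The ratio of COL6A1 to COL6A2 in CPM per kilobase lay between 14.3 and 17.4 in isotonic medium and between 2.71 and 3.37 in 4% PEG. COL6A3, the longest of these type VI chains, overlapped between the groups, at 50.5 and 28.0 CPM against 41.2 and 10.8 CPM. COL12A1 went from 0 counts to 11 (at least 2.99-fold higher).

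All 14 calls remained with GC-corrected offsets, a setting that called 57.8% of all genes (29.1% higher and 28.7% lower) against 46.9% in the main fit. COL12A1 was lost without either isotonic replicate or without 4% PEG replicate 1 (adjusted p up to 0.134), COL14A1 without isotonic replicate 2 (0.0652), COL21A1 without isotonic replicate 2 or 4% PEG replicate 2 and in DESeq2 (up to 0.124), and COL26A1 when the 2 groups were fitted alone (0.0619). Marker genes of cell types were summed in the same libraries. The 8 endothelial markers summed to 12.7 to 16.1 CPM in isotonic medium, with TEK, CLEC4M and EMCN at 0. In 4% PEG they summed to 79.5 to 131 CPM, led by TIE1 with 91.1 CPM. The 8 leukocyte markers, led by LYZ, summed to 3784 to 4629 CPM in isotonic medium and to 500 to 571 CPM in 4% PEG. The 8 hepatocyte markers summed to between 134670 and 142890 CPM in isotonic medium and to between 31073 and 34475 CPM in 4% PEG. Sums of the 10 fibroblast and stellate markers overlapped, at 32.1 to 44.5 and 27.8 to 37.9 CPM. Their part in the collagen result was not tested.

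**Figure D4:**
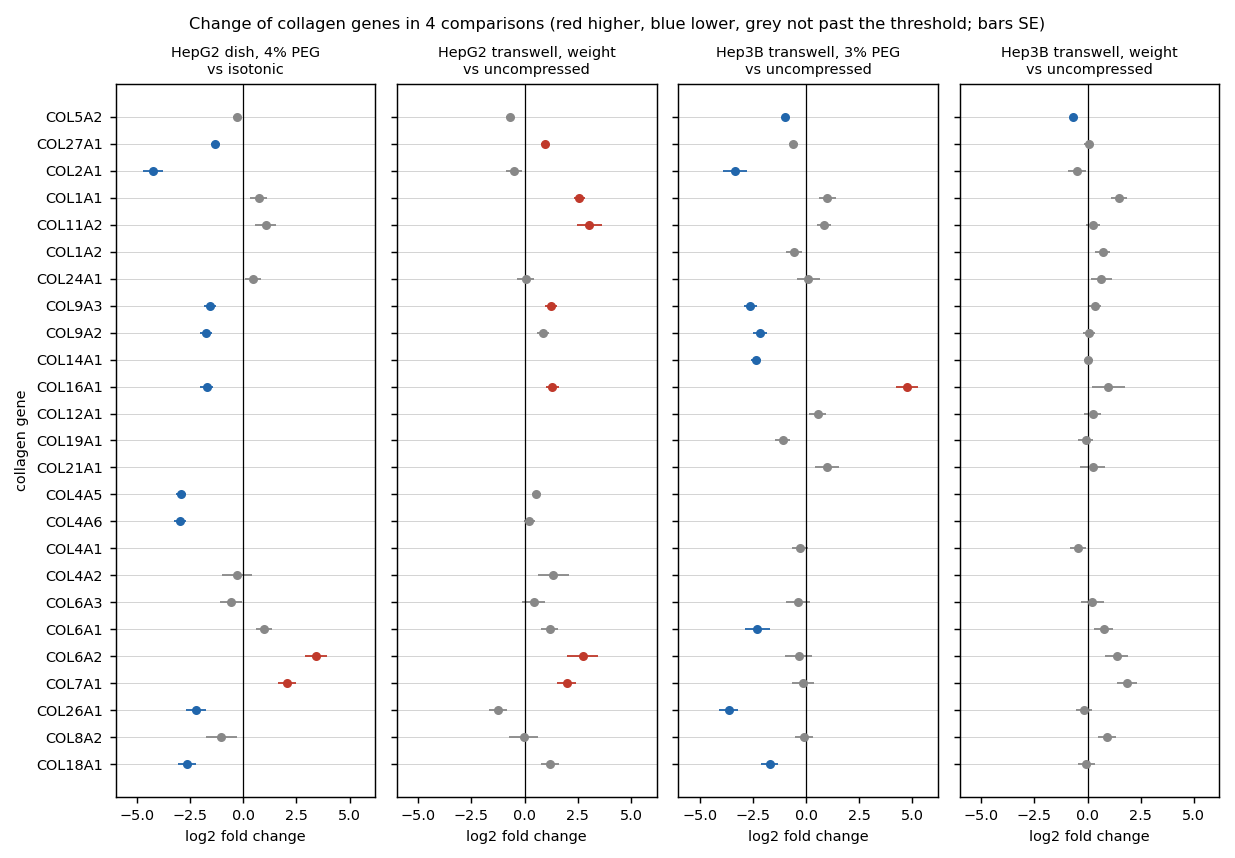
Log2 fold change of each collagen gene (rows, by class) in the 4 compression comparisons, with bars for the standard error of the edgeR fit; red passed upward, blue downward, grey did not pass. Genes with 3 counts or fewer in either group have no point; most called genes are blue under both PEG doses and red in HepG2 under a weight.

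Under a weight, HepG2 on transwells raised collagens of several classes. Of the 25 genes, 7 rose and none fell, where 5.40% of all genes tested rose and 4.18% fell (9.58% in all). At an unadjusted p under 0.05, 12 were higher and 2 lower, and DESeq2 called 12 higher and 1 lower. DESeq2 called 2393 of all 19232 genes in this comparison, against 1842 in the main fit. The share of all genes at the unadjusted cut was not counted. The median change was 0.87 for the collagen genes, or 0.96 without those at the floor in both groups, and 0 for all genes. COL1A1 (ENSG00000108821, chr17:50183289-50201632) rose from 2.01 and 1.57 CPM to 11.2 and 10.1 CPM (log2 fold change 2.58, SE 0.26, adjusted p = 0.000157), the only one of the 7 calls kept without each library in turn.

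COL9A3 rose from 82.6 and 83.1 CPM to 212 and 178 CPM (1.23, SE 0.27, adjusted p = 0.0145). COL27A1 rose from 92.8 and 79.4 CPM to 207 and 128 CPM (0.96, SE 0.21, adjusted p = 0.014). COL7A1 rose from 3.30 and 3.48 CPM to 17.9 and 8.78 CPM (1.98, SE 0.44, adjusted p = 0.0161), with the weight replicates far apart but both above the controls. COL16A1 rose by 1.31 (SE 0.31), and 2 genes rose from very low levels: COL6A2 from 6 counts to 40 (2.73, SE 0.72) and COL11A2 from 4 counts to 34 (3.04, SE 0.58).

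COL18A1, the gene with the most counts, stood at 158 and 150 CPM uncompressed and at 364 and 342 CPM under a weight. It did not pass with the spread pooled over all libraries (1.20, SE 0.40, adjusted p = 0.0901), but passed in the fit of the transwell libraries alone (1.23, SE 0.06, adjusted p = 4.14e-16). SLC19A1, which shares exonic bases with it, stood at 22.3 ± 0.69 and 23.8 ± 3.02 CPM. In that same fit COL9A2, COL4A5, COL6A1 and COL12A1 also passed upward, at 0.90, 0.58, 1.21 and 3.17, giving 12 higher genes in all, where that fit called 19.6% of all genes higher and 19.0% lower. COL26A1, COL5A2 and COL2A1 passed downward in it, at -1.23, -0.64 and -0.48. COL2A1 stood at 72.2 and 72.9 CPM uncompressed and at 48.5 and 53.4 CPM under a weight.

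With 1 library left out, 1 to 4 genes passed upward. COL16A1, COL6A2 and COL9A3 were lost without any of the 4 libraries, COL7A1 and COL27A1 without either uncompressed replicate or weight replicate 1, and COL11A2 without uncompressed replicate 2 or weight replicate 1 (adjusted p up to 0.203). COL7A1 and COL27A1 were also lost when the 2 groups were fitted alone. The fibroblast and stellate markers summed to 54.9 to 59.7 CPM uncompressed and to 48.9 to 52.6 CPM under a weight, with DCN and THY1 at 0 in both groups, and the endothelial markers to 7.86 to 8.12 and 18.1 to 18.7 CPM. The hepatocyte markers summed to 103830 to 111580 and 90968 to 101100 CPM, and the leukocyte markers, led by LYZ, to 4846 to 4931 and 2642 to 2717 CPM. Their part in the result was not tested.

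**Figure D5:**
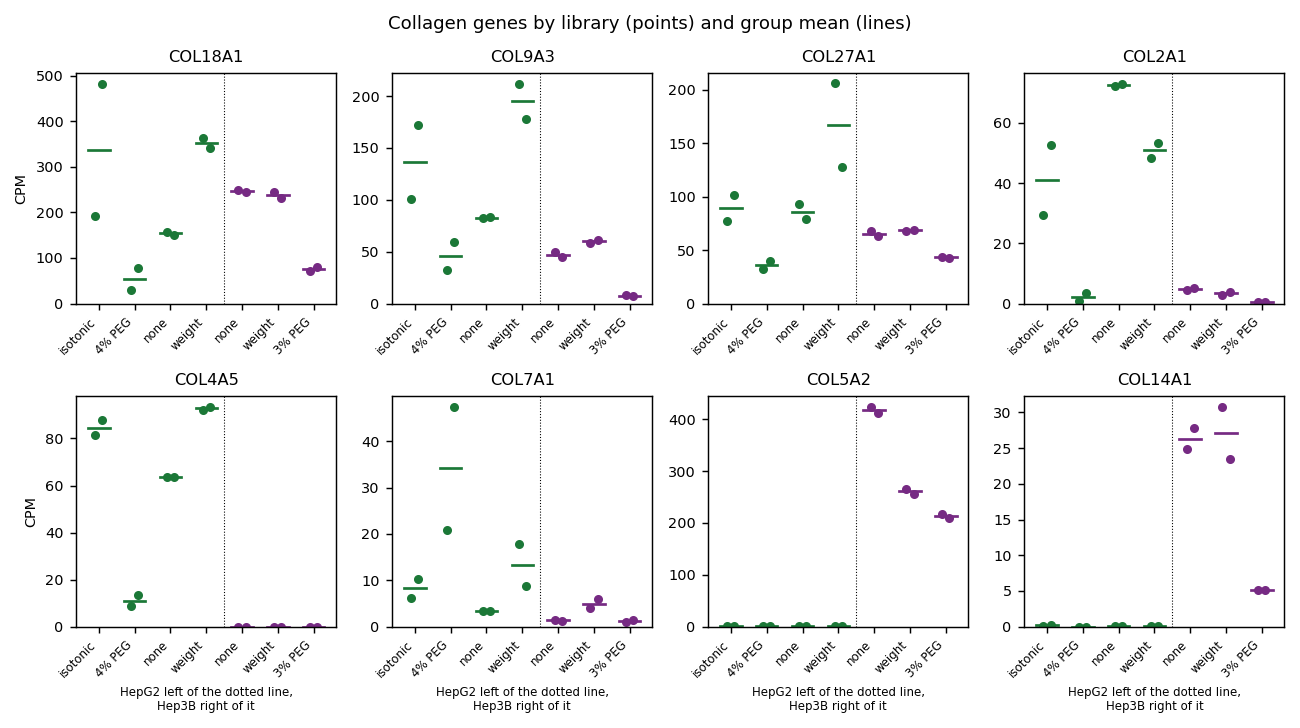
CPM of 8 collagen genes in each library (points) with the group mean (line), HepG2 left of the dotted line (dish: isotonic, 4% PEG; transwell: none, weight) and Hep3B right of it (transwell), each panel on its own linear axis from 0. COL18A1 and COL9A3 are at their lowest in the PEG groups of both lines, and COL7A1 is at its highest in HepG2 with 4% PEG.

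In Hep3B under a weight, 1 of the 25 genes fell and none rose, where 0.172% of all genes tested fell and 0.879% rose (1.05% in all). COL5A2, the dominant collagen of the line, fell from 423 and 413 CPM to 266 and 256 CPM (log2 fold change -0.68, SE 0.11, adjusted p = 0.0109). The groups stood far apart relative to their spread, but the call was lost without any of the 4 libraries (adjusted p up to 0.2). At an unadjusted p under 0.05, 3 genes were higher and 1 lower, and DESeq2 called 1 of each. DESeq2 called 488 of all 19232 genes in this comparison, against 202 in the main fit. The share of all genes at the unadjusted cut was not counted. The median change was 0.24 for the collagen genes, or 0.25 without those at the floor, and -0.01 for all genes.

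COL7A1 stood at 1.47 and 1.26 CPM uncompressed and at 3.96 and 5.90 CPM under a weight, without overlap. Its log2 fold change of 1.85 (SE 0.48, adjusted p = 0.13) passed in DESeq2 (adjusted p = 0.00365), with GC-corrected offsets (0.00415), without the low-count filter and with the 2 groups fitted alone. GC-corrected offsets called 3.89% of all genes, the fit without the filter 456 of 38337 and the 2 groups alone 2474 of 16303. COL1A1 stood at 0.279 and 0.246 CPM uncompressed and at 0.577 and 0.916 CPM under a weight (1.49, SE 0.38, adjusted p = 0.122). With the transwell libraries alone, COL1A1, COL6A2, COL8A2 and COL9A3 passed upward, at 1.52, 1.39, 0.92 and 0.37, and COL2A1 downward at -0.47, where that fit called 8.38% of all genes higher and 6.86% lower. COL18A1 stood at 250 and 245 CPM uncompressed and at 244 and 231 CPM under a weight, a change of -0.06 (SE 0.40).

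Under 3% PEG, 8 of the 25 genes fell in Hep3B and 1 rose, where 11.5% of all genes tested fell and 11.0% rose (22.5% in all). The median change was -0.35, or -0.37 without genes at the floor, against -0.01 for all genes. This comparison and that with the weight use the same uncompressed libraries, so their values stand side by side and are not independent. COL9A3 (ENSG00000092758, chr20:62816244-62841159) fell from 49.9 and 44.6 CPM to 7.81 and 7.52 CPM (log2 fold change -2.62, SE 0.29, adjusted p = 9.32e-05). COL9A2 fell from 13.4 and 13.96 CPM to 3.38 and 2.72 CPM (-2.17, SE 0.31). COL14A1 fell from 24.8 and 27.8 CPM to 5.12 CPM in each library (-2.36, SE 0.25, adjusted p = 9.3e-05), while under a weight it stood at 30.7 and 23.4 CPM.

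COL26A1 fell from 8.35 and 7.30 CPM to 0.644 and 0.600 CPM (-3.64, SE 0.47). COL2A1 fell from 4.37 and 5.23 CPM to 0.443 and 0.494 CPM (-3.34, SE 0.56). COL18A1 fell from 250 and 245 CPM to 71.5 and 79.4 CPM (-1.71, SE 0.41, adjusted p = 0.0111), while SLC19A1 on the other strand stood at 21.7 ± 0.69 and 14.4 ± 1.90 CPM (adjusted p = 0.305). COL5A2 fell to 218 and 210 CPM (-0.97, SE 0.11) and COL6A1 to 0.282 and 0.353 CPM from 1.54 and 1.61 CPM (-2.29, SE 0.58).

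COL16A1 (ENSG00000084636, chr1:31652247-31704319), a fibril-associated chain, was the gene that rose, from 0.140 and 0.0351 CPM to 2.18 and 2.79 CPM (4.75, SE 0.51, adjusted p = 7.52e-05). It had 5 counts in the uncompressed libraries and 133 in 3% PEG, and was called in every alternative that was run. In HepG2 the same gene fell under 4% PEG, from 5.66 and 9.34 CPM to 1.97 and 2.55 CPM, so that the 2 lines ended at similar levels in PEG from different starting points; lines, doses and surfaces differed between the comparisons, and the difference of the 2 changes was not tested.

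COL6A1 was lost without any of the 4 libraries and COL18A1 without uncompressed replicate 1 or either 3% PEG replicate (adjusted p up to 0.0976 and 0.088), and COL11A2 passed upward and COL19A1 downward with the transwell libraries alone (0.85 and -1.08), which called 26.8% of all genes higher and 25.9% lower. The fibroblast and stellate markers summed to 57.7 to 60.6 CPM uncompressed, led by PDGFRA with 38.1 CPM and with ACTA2 at 0. In 3% PEG they summed to 35.4 to 36.0 CPM, led by LUM with 16.7 CPM and with THY1 and ACTA2 at 0. The hepatocyte markers summed to 43270 to 45989 and 28558 to 28685 CPM, the leukocyte markers to 17.2 to 17.4 and 6.36 to 6.71 CPM, and the endothelial markers stayed under 1 CPM in sum. Their part in the result was not tested.

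Set directly against 3% PEG, the weight left 10 of the 25 genes higher and 1 lower, where 11.8% of all genes tested were higher and 11.4% lower (23.1% in all). The median difference was 0.66, or 0.97 without genes at the floor in both groups, against 0.02 for all genes. Among genes over 10 CPM under a weight, the differences were largest for COL9A3 (log2 difference 2.96, SE 0.30, adjusted p = 4.13e-05), COL14A1 (2.40, SE 0.25) and COL9A2 (2.25, SE 0.32). At lower levels, COL26A1 (3.46, SE 0.47, adjusted p = 0.000344) and COL6A1 (3.05, SE 0.56) differed by more than COL9A3, and COL2A1 by 2.84 (SE 0.58). COL7A1, COL18A1, COL1A2 and COL27A1 were the other higher genes, and COL16A1 was the lower one (-3.79, SE 0.47). COL18A1, COL1A2 and COL27A1 were lost without any of the 4 libraries and COL7A1 without weight replicate 2 or either 3% PEG replicate (adjusted p up to 0.254). COL27A1 was also lost with the transwell libraries alone and with GC-corrected offsets, and COL1A2 in DESeq2, without the filter and with the replicate block (adjusted p = 0.058). COL5A2 differed little between the 2 kinds of compression, at 266 and 256 CPM under a weight and 218 and 210 CPM in 3% PEG (0.29, SE 0.11, adjusted p = 0.0815), though it passed with the transwell libraries alone (adjusted p = 2.51e-05). That fit also called COL19A1, COL6A2 and COL8A2 higher, at 1.014, 1.72 and 0.98, for 13 higher genes, where it called 26.6% of all genes higher and 25.5% lower.

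The changes in different comparisons were set against each other where controls were separate. Of the 11 genes that fell in HepG2 under 4% PEG and the 8 that fell in Hep3B under 3% PEG, 6 were on both lists: COL2A1, COL9A2, COL9A3, COL14A1, COL18A1 and COL26A1. That is 54.5% of the first list and 75.0% of the second. Of all genes tested, 1057 fell in both, which is 23.9% of the 4421 that fell in HepG2 and 47.8% of the 2212 that fell in Hep3B, and the difference between these shares was not tested. In HepG2, the change under 4% PEG (dishes) minus the change under a weight (transwells) was lower for 9 of 25 genes and higher for none, where 15.5% of all genes tested were lower and 14.4% higher (29.9% in all). At an unadjusted p under 0.05, 11 were lower and none higher, and DESeq2 called 9 lower and none higher. No share of all genes is given for these counts, so they are not read as a result about collagens. The 9 were COL18A1 (-3.82, SE 0.58), COL2A1 (-3.72, SE 0.58), COL4A5 (-3.47, SE 0.30), COL4A6 (-3.21, SE 0.38), COL16A1, COL9A3, COL9A2, COL27A1 and COL1A1, the last lost without isotonic replicate 2 or uncompressed replicate 2 (adjusted p up to 0.126). Kind of compression and culture surface cannot be told apart in it. COL7A1 and COL6A2 rose under both treatments, with differences of 0.08 (SE 0.60) and 0.69 (SE 1.03) between the changes.

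The weight effect in Hep3B against that in HepG2 gave no call in either direction among the 25 genes, where 1.07% of all genes tested were lower and 0.822% higher (1.89% in all). At an unadjusted p under 0.05, 7 were lower and none higher, and DESeq2 called 1 lower. No share of all genes is given for these counts, so they are not read as a result about collagens. With the transwell libraries alone, 5 were called lower in Hep3B, COL9A3 (-0.89, SE 0.10), COL18A1 (-1.26, SE 0.08), COL9A2, COL11A2 and COL12A1, and 1 higher, COL26A1, where that fit called 10.3% of all genes lower and 12.2% higher. The change of COL7A1 under a weight was 1.98 in HepG2 and 1.85 in Hep3B, a difference of -0.13 (SE 0.66).

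Untreated HepG2 on transwells and on dishes differed in 3 of the 25 genes, 2 higher and 1 lower on transwells, where 4.79% of all genes tested were higher and 5.33% lower (10.1% in all), with a median of -0.45 (-0.70 without genes at the floor in both groups) against 0.01 for all genes. COL1A1 was higher (1.79 ± 0.31 against 0.294 ± 0.12 CPM, log2 difference 2.63, SE 0.35), as was COL5A2 (0.74, SE 0.18). COL6A3 was lower, with 6.69 and 4.55 CPM on transwells against 50.5 and 28.0 CPM on dishes (-2.81, SE 0.56, adjusted p = 0.0118). With GC-corrected offsets 4 were higher and 9 lower, where 14% of all genes were higher and 11.5% lower. Those added were COL2A1 and COL26A1 higher and COL18A1, COL9A3, COL7A1, COL9A2, COL6A2, COL16A1, COL6A1 and COL4A5 lower. COL18A1 then had a log2 difference of -1.10 (SE 0.094, adjusted p = 1.61e-06). When the 4 libraries were fitted alone, none of the 15532 genes tested passed, these 3 included. COL6A3 was also lost without either transwell replicate. COL5A2 was lost without either of those or isotonic replicate 1, in DESeq2 and with a stricter filter of 5 CPM in 2 libraries. Surface and any other difference between the dish and transwell experiments cannot be told apart.

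Across the 4 compression comparisons, 7 of the 25 genes passed in none: COL1A2, COL19A1, COL24A1, COL4A1, COL4A2, COL6A3 and COL8A2. COL7A1 and COL6A2 were each called in 2 comparisons, both upward. COL16A1, COL27A1 and COL9A3 were called in both directions, and in HepG2 all of these fell under 4% PEG and rose under a weight. COL8A2 did not pass with the spread pooled, at 9.88 and 8.53 CPM in Hep3B under a weight against 4.96 and 4.95 CPM uncompressed (adjusted p = 0.627).

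The genes that fold, export, bind and break down collagen were followed from lists, to be read against the shares of all genes: 23.9% rose and 23.0% fell under 4% PEG, 11.0% and 11.5% under 3% PEG, 5.40% and 4.18% in HepG2 under a weight, and 0.879% and 0.172% in Hep3B under a weight. Of 19 tested genes that fold and modify chains in the endoplasmic reticulum, 10 fell and 2 rose in HepG2 under 4% PEG, with a median of -0.74 against 0.01 for all genes. P4HA1, a subunit of prolyl 4-hydroxylase, went from 907 ± 121 to 239 ± 41.6 CPM (-1.92, SE 0.18, adjusted p = 5.22e-06), and PPIB, a prolyl isomerase, fell by 1.35. Under a weight in Hep3B, 2 of the 19 rose and none fell, and both modify collagen: P4HA1 (1.51, SE 0.18, adjusted p = 0.0017) and the lysyl hydroxylase PLOD2 (1.40, SE 0.25, adjusted p = 0.0208). In HepG2 under a weight 1 rose and 2 fell, and in Hep3B under 3% PEG 4 rose and 3 fell.

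Of 14 tested genes for export and trimming, 4 rose and 4 fell under 4% PEG, near the share of all genes in each direction, and PCOLCE2, an enhancer of procollagen trimming, went from 29.6 ± 7.47 to 1.28 ± 0.030 CPM (-4.53, SE 0.21). It fell in Hep3B under 3% PEG as well, from 58.8 ± 1.26 to 15.3 ± 0.62 CPM (-1.94, SE 0.18), where MIA3, the receptor that loads collagen into transport carriers, rose by 1.02 (SE 0.19). Of 8 tested collagen receptors, 6 rose and none fell under 4% PEG, among them the integrin chain ITGA2, from 465 ± 122 to 2571 ± 274 CPM (2.47, SE 0.18, adjusted p = 8.25e-07). ITGA2 also rose in Hep3B under a weight (1.41, SE 0.18), and ITGA1 in HepG2 under a weight (1.23, SE 0.18).

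Of 9 tested collagen-degrading enzymes, 5 rose and none fell under 4% PEG, including the membrane-bound collagenase MMP14, from 7.90 ± 2.77 to 67.6 ± 8.02 CPM (3.11, SE 0.20, adjusted p = 2.86e-07), and the lysosomal protease CTSL (1.71, SE 0.12). Of 14 tested fibril partners, 5 fell and 2 rose under 4% PEG, among the falls fibronectin (FN1, -1.74, SE 0.15) and nidogen 1 (NID1, -1.90, SE 0.13), which links type IV collagen to laminin. In HepG2 under a weight 4 partners rose and none fell, among them TGFBI (1.18, SE 0.15), and in Hep3B under a weight BGN, a proteoglycan that binds fibrils, was the partner that rose (2.11, SE 0.32). Under 3% PEG in Hep3B, 3 partners rose and 3 fell. LUM, a proteoglycan that binds fibrils, was the one of the risen genes above 5 CPM (1.14, SE 0.29, adjusted p = 0.0152), and NID1, NID2 and the basement membrane proteoglycan HSPG2 fell by 1.12, 3.47 and 1.56.

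RB1 separated the lines as labelled, with its level at 127 ± 6.17 CPM in HepG2 and at 2.68 ± 0.066 CPM in Hep3B when left uncompressed, the latter a line known to lack RB1. All 8 hepatocyte markers exceeded 1 CPM in each group. Of the 10 fibroblast and stellate markers, 3 to 5 did so in a group, and their sum stayed between 27.8 and 61.6 CPM over all libraries. The leukocyte list was led by LYZ, at 4886 CPM in uncompressed HepG2. There, 2 of its 8 genes exceeded 1 CPM, and 3, PTPRC, CD3E and MS4A1, had no count. In uncompressed Hep3B, CD3E, MS4A1 and NKG7 had no count.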

How the data were processed

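Total RNA of 14 libraries of the lines HepG2 and Hep3B was sequenced as paired reads of 100 bases, per the labels' protocols. The authors deposited whole-number read counts per gene, in 1 table for the whole series. STAR, DESeq2 and GRCh38 are named in the submitters' processing notes, without versions or roles. For the counting, no annotation or strand setting is given in the sources used here. Groups come from the sample titles, and a column headed as a Hep3B control was taken as uncompressed Hep3B. Genes with an identifier but no symbol, at most 0.308% of a library, were kept.

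The counts were tested with edgeR 4.0.16 (R 4.3.3) after its filter on low counts (minimum 10) and TMM normalization. A robust quasi-likelihood fit held 1 mean for each of the 7 groups and pooled the spread over all libraries (7 residual degrees of freedom). P-values were adjusted by Benjamini-Hochberg over all 19232 genes that passed, with a threshold of 0.05. Levels are CPM on TMM-scaled library sizes, as mean ± SD (n = 2). The standard error of a log2 change is the change over the square root of its F. The fit was tested on simulated data with 1 spread for all genes and libraries. The dish and transwell groups here differ in spread, so that test does not cover the pooling of the 2.

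With totals of 21161950 to 35394448 counts, 3 counts over a group (0.0493 to 0.0659 CPM) were taken as the floor, and exact 95% intervals of count ratios cover counting error only. Gene models, lengths and GC content came from GENCODE 29 (GRCh38), in which all 56479 identifiers were found, and promoter windows from RefSeq (GRCh38.p14). The collagen genes, the other gene lists and the tests were chosen with earlier results of these data known. Genes with a mean of at least 5 CPM in a compared group that passed the test were to be given by library, with up to 4 called genes of each other list by smallest p. Further genes were named after their values were seen. Alternatives were RLE size factors, no filter, a filter of 5 CPM in 2 libraries, the compared groups fitted alone, DESeq2 1.42.0, a replicate block, GC-corrected offsets, both together and each library left out. A fit of the transwell libraries alone was added after seeing the data. Protein sequences were not used here, and COL14A1 and COL22A1 are given without position or sequence.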

Additional observations from a re-analysis of the deposited data

How the results depend on the processing

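No direction of a called collagen gene reversed under any alternative, and 47 of the 71 calls over the 9 comparisons held in each one run. With the stricter filter, fewer genes could be tested: 1 rose under 4% PEG, 3 were higher in Hep3B than in HepG2, and 1 was higher on transwells than on dishes. For HepG2 under a weight, the count of higher genes was 11 without the filter and with the groups fitted alone, and 12 with the transwell libraries alone, DESeq2, GC-corrected offsets, and these with the block. The count of lower genes was 1 without the filter and in DESeq2, 2 with the groups alone, and 3 in the others. The share of all genes called also moved, from 9.58% in the main fit to 38.6% with the transwell libraries alone and 21.3% with GC-corrected offsets. The groups fitted alone called 6972 of 15653 genes, with 19 of the 25 collagen genes tested, and DESeq2 called 2393 of 19232. For Hep3B under a weight, 1 gene was higher without the filter, in DESeq2 and with both GC settings, 5 with the groups alone and 4 with the transwell libraries alone, where 2 were lower. There the main fit called 1.05% of all genes, GC-corrected offsets 3.89% and the transwell libraries alone 15.2%. The groups alone called 2474 of 16303 genes, with 19 collagen genes tested. For Hep3B in 3% PEG, 3 were higher with the groups alone and 2 with the transwell libraries alone and both GC settings. In that comparison the main fit called 22.5% of all genes, the transwell libraries alone 52.6% and GC-corrected offsets 36.1%.

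For transwells against dishes, higher genes numbered 0 with the groups alone, 1 in DESeq2 and 4 with both GC settings, and lower ones 5 without the filter, 0, 3 and 9 in that order. For the difference in weight effect between lines, 1 was higher with the groups alone, the transwell libraries alone and both GC settings. Lower ones numbered 4 without the filter, 5 with the groups alone and with the transwell libraries alone, 1 in DESeq2, 3 with GC-corrected offsets and 4 with these and the block. For transwells against dishes, the main fit called 10.1% of all genes and GC-corrected offsets 25.5%. For the difference in weight effect, these called 1.89% and 7.16%, and the transwell libraries alone 22.4%. Why the counts of collagen genes moved was not tested.

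With 1 library left out, the calls higher and lower ranged from 2 to 4 and 9 to 12 under 4% PEG, 1 to 4 and 0 to 0 for HepG2 under a weight, 0 to 0 and 0 to 0 for Hep3B under a weight, and 1 to 1 and 6 to 7 in 3% PEG. They ranged from 6 to 7 and 1 to 1 for weight against 3% PEG, 8 to 8 and 6 to 8 between lines, 1 to 4 and 0 to 4 for transwells against dishes, 0 to 0 and 0 to 0 for the weight effect between lines, and 0 to 0 and 8 to 11 for 4% PEG against the weight. The lone library of a group was then assumed to vary like the others.

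Replicate numbers appear in every group, but each comparison has 2 pairs only and no label says what a number shares. Same-numbered libraries deviated together on dishes (correlation 0.633) and hardly elsewhere (-0.078 to 0.073). With the replicate block, 4 collagen genes rose and 11 fell under 4% PEG, 8 rose and 0 fell in HepG2 under a weight, 0 rose and 1 fell in Hep3B under a weight, and 1 rose and 8 fell in 3% PEG. Higher and lower calls were 10 and 1 for weight against 3% PEG, with COL1A2 lost (adjusted p = 0.058) and COL6A2 gained (0.0328), 8 and 9 between lines, 2 and 1 for transwells against dishes, 0 and 0 for the weight effect between lines and 0 and 9 for 4% PEG against the weight.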
